A study of Mus musculus with 10 samples.

Results

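The 10 genes described here are imprinted growth genes that lie outside the Dlk1-Dio3 domain: Igf2, Igf2r, Peg3, Peg10, Mest, Plagl1, Grb10, Ndn, Zim1 and Impact. They were chosen by name. Each was read from the probe set annotated to that symbol alone; where a gene has several such probe sets the one with the highest mean over all lungs is used, and each of the 10 has 1. All 10 were measured, of 17919 genes in all. Each lung was taken whole from a mouse embryo at E18.5 and read on 1 Affymetrix array. The 5 control lungs are labelled Shhcre control, and the 5 knockout lungs are labelled Shhcre:Hdac3fl/fl, in which the Shh-driven Cre deletes floxed Hdac3 in the lung epithelium. Both groups are of a mixed C57BL/6 and 129X1,129S6 background and carry Shh-Cre. The mothers were Hdac3 fl/fl and the fathers Hdac3 fl/+ with Shh-Cre, while which Hdac3 alleles the controls carry is not stated, so a control of this cross with Shh-Cre would be heterozygous for the deletion in its epithelium. Hdac3 in other cells of the lung is not deleted and counts toward every value.

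An imprinted gene is transcribed mainly from the allele of 1 parent, under the control of a methylation mark set in the germ line. Many imprinted genes act on fetal growth, and most are high in fetal tissues and fall after birth. Igf2, Peg3, Peg10, Mest, Plagl1, Ndn and Impact are known as paternally expressed, while Igf2r, Zim1 and, in most tissues, Grb10 are maternally expressed. Hdac3 is a histone deacetylase of the NCoR and SMRT corepressor complexes. The array reads the sum of both alleles, so a level says nothing of allelic use. In whole lung, fewer cells of a type and less RNA per cell cannot be told apart.

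Levels are log2 probe set levels as deposited, and a change is the knockout mean minus the control mean on that scale. A gene was called where the limma test had a Benjamini-Hochberg adjusted p under 0.05 over all genes. Hdac3 itself was called lower, at 80.4% of control (log2 change -0.31 ± 0.07, SE; limma adjusted p = 0.0203); that call was lost without control 2 or control 5 (adjusted p up to 0.0545). Of all genes, 3.12% were called, 276 (1.54%) higher and 283 (1.58%) lower. All 18 measured lung epithelial markers, among them Sftpc, Nkx2-1 and Ager, had means above 6.30, a floor set at the 20th percentile over all genes and lungs, and every value of the 10 imprinted genes also lay above it.

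None of the 10 imprinted genes was called by limma, and 0 of 10 passed an unadjusted p of 0.05, as 13.5% of all genes did. A block on the replicate number also called 0 of 10, beside 4.72% of all genes. Against a background of 3.12%, a count of 0 among 10 genes is near that of any 10 genes and is not a result about them. What the values add is the size and interval of each difference. The median size of the 10 changes was 0.03, against 0.06 over all genes, and 5 of the 10 knockout means lay above the control mean. For 9 of the 10, the 95% interval of the change lay within 0.25 of 0 on the log2 scale, as it did for 65.8% of all genes. Zim1 was the exception, with an interval from -0.52 to 0.19. These intervals take the lungs as unpaired.

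**Figure D1:**
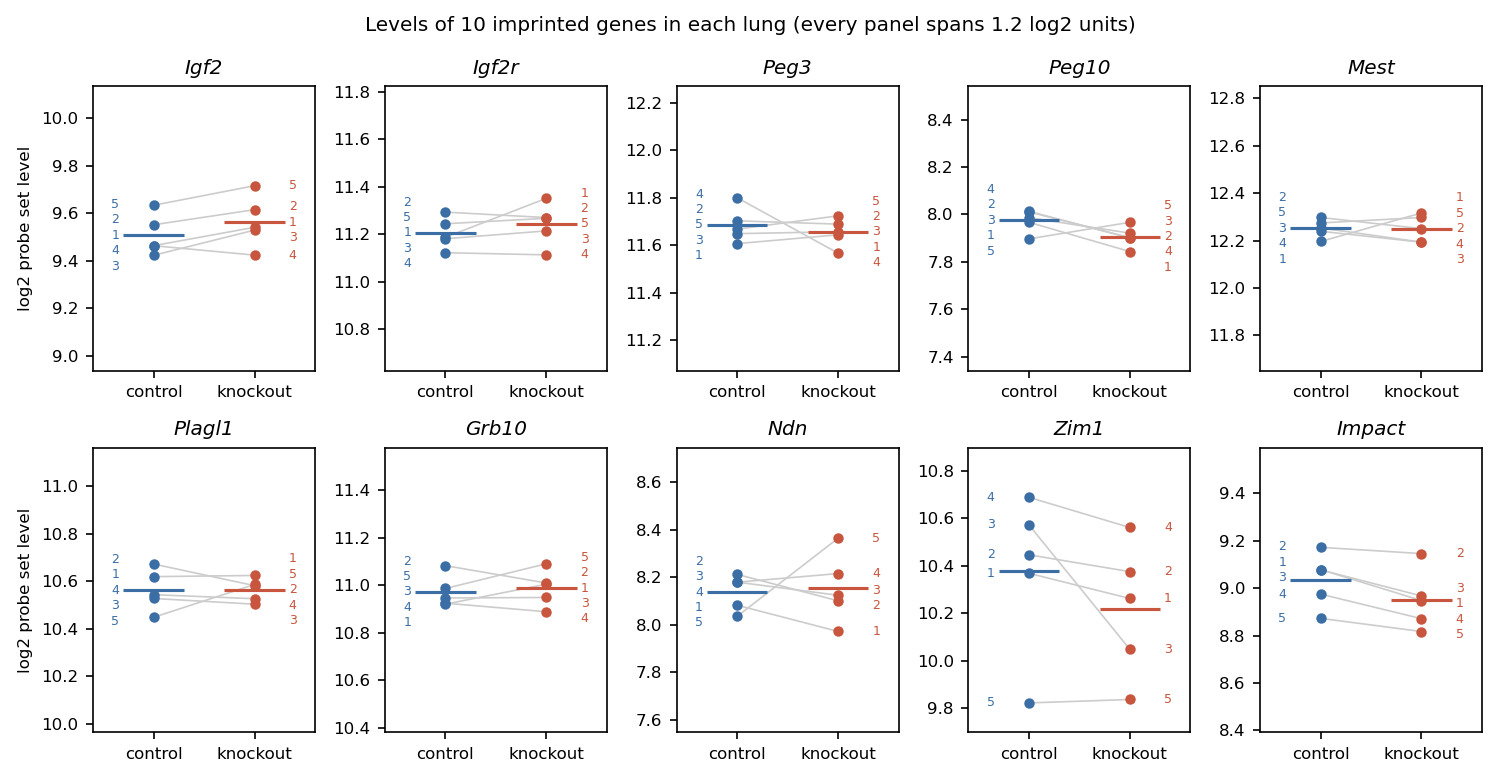
Level of each imprinted gene in each lung on the log2 scale (vertical axis), controls at left and knockouts at right; points are lungs with their replicate numbers, grey lines join lungs of the same number, and bars are group means. The groups overlap in all 10 panels, and Zim1 spreads most, from 9.82 to 10.69 in controls.

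**Figure D2:**
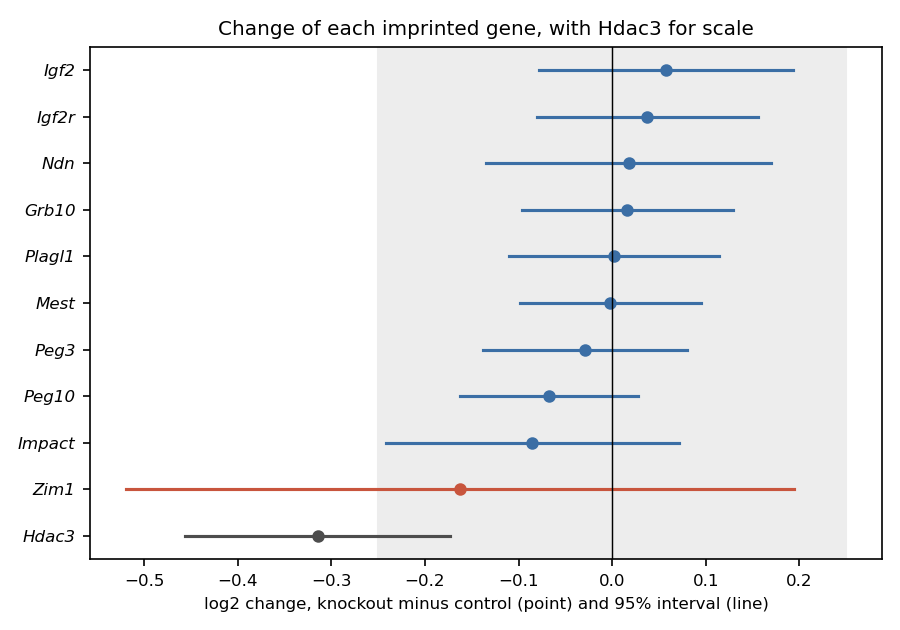
Log2 change between knockout and control (point) with its 95% interval (line) for the 10 imprinted genes and Hdac3; the grey band marks 0.25 on either side of 0. Zim1 (red) is the only imprinted gene whose interval leaves the band.

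Promoter sequence is shown for Zim1 and Peg3, because they are neighbours whose levels spread unequally between lungs, and for Igf2r and Grb10, because these are among the genes that went up and down together between lungs (values follow). The windows are the 250 bases before the annotated start in RefSeq (GRCm38.p6), on the minus strand, 5′ to 3′, with capitals for CpG dinucleotides, the sites of DNA methylation. They are chr7:6696433-6696682 for Zim1, chr7:6730420-6730669 for Peg3, chr17:12769707-12769956 for Igf2r and chr11:12037421-12037670 for Grb10, the last being the richer of 2 Grb10 windows.
Zim1: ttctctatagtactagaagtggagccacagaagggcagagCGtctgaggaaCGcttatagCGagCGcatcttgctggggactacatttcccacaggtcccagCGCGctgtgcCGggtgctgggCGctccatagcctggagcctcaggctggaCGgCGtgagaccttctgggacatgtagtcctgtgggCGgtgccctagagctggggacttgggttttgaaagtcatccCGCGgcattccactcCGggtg
Peg3: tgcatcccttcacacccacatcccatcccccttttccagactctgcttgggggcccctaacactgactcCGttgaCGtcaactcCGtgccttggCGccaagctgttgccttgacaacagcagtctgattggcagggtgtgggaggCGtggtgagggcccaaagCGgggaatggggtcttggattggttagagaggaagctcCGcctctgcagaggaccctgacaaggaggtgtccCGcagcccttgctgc
Igf2r: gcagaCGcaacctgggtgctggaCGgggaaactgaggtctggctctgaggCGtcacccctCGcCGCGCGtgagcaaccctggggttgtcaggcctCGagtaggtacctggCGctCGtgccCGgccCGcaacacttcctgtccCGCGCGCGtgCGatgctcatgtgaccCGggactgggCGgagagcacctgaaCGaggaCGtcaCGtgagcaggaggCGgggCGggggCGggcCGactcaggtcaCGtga
Grb10: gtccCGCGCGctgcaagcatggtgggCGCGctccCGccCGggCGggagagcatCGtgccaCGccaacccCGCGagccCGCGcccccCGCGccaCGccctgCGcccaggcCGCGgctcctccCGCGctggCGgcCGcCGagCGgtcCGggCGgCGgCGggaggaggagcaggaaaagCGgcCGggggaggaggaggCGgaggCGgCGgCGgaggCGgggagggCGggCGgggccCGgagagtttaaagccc

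The Zim1 window held 14 CpGs and the Peg3 window 8, against a median of 6 over 32851 windows of the same length. The Igf2r window held 27 and the Grb10 window 40, more than in 91.4% and 98.7% of all windows. The other Grb10 window, not shown, held 8, more than in 57.0% of all windows. Of the 10 genes 8 had a window in the table, 14 windows in all, and 11 of the 14 held more than 6 CpGs, as 46.3% of all windows did. These windows are not separate units, as some genes have several. Mest windows starting at 30737800 and 30737803 on chromosome 6 overlap almost fully. The letters TATAAA were found on neither strand of any of the 14, and they occur in 12.4% of all windows. The letters GCCATNTT, the core that the factor YY1 binds, were likewise in 0 of 14, against 3.91% of all windows, and the 2 motifs do not overlap. These counts describe the windows; methylation was not measured.

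Igf2, Igf2r and Grb10 form the growth factor arm of the set. Igf2 encodes insulin-like growth factor 2, the main fetal growth factor of the family. Its level was 9.46, 9.55, 9.42, 9.46 and 9.63 in controls 1 to 5 and 9.54, 9.61, 9.53, 9.42 and 9.72 in knockouts 1 to 5. The highest value of each group was that of the lung numbered 5, and the groups overlapped. The change was 0.06 (95% interval -0.08 to 0.19; limma adjusted p = 0.778), so that the knockout level was between 94.8% and 114% of control.

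Igf2r encodes the mannose 6-phosphate receptor that clears IGF2 from the cell surface and carries it to lysosomes. It stood at 11.19, 11.29, 11.18, 11.12 and 11.24 in controls and at 11.35, 11.27, 11.21, 11.11 and 11.27 in knockouts. The lung numbered 4 was the lowest of each group. The change was 0.04 (95% interval -0.08 to 0.16; limma adjusted p = 0.848).

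Grb10 encodes an adaptor that binds the insulin and IGF1 receptors and restrains their signal. It stood at 10.92, 11.08, 10.95, 10.92 and 10.99 in controls and at 11.004, 11.01, 10.95, 10.89 and 11.09 in knockouts, which overlap almost fully. The change was 0.02 (95% interval -0.10 to 0.13; limma adjusted p = 0.946), and its sign turned without knockout 5.

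Mest, Peg3 and Peg10 are paternally expressed genes tied to growth of the fetus and placenta. Mest, which encodes a hydrolase-like protein of mesodermal tissue, had the narrowest controls, from 12.20 in control 1 to 12.30 in control 2. Its knockouts ran from 12.19 in lungs 3 and 4 to 12.32 in lung 1. Its means were 12.25 ± 0.04 and 12.25 ± 0.06 (SD, n = 5 per group), with a 95% interval of the change from -0.10 to 0.09 and a limma adjusted p of 0.993.

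Peg3 encodes a large zinc finger protein that acts in growth and in cell survival. It stood at 11.61, 11.70, 11.65, 11.80 and 11.67 in controls and at 11.64, 11.69, 11.66, 11.57 and 11.72 in knockouts. The lung numbered 4 was the highest control and the lowest knockout. The change was -0.03 (95% interval -0.14 to 0.08; limma adjusted p = 0.884).

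Peg10, a gene derived from a retrotransposon and needed in the placenta, stood at 7.97, 8.01, 7.99, 8.01 and 7.90 in controls and at 7.84, 7.90, 7.92, 7.90 and 7.97 in knockouts. All 5 knockouts lay under the control mean, but control 5 lay under all knockouts except lung 1, so the groups overlapped. The change was -0.07 (95% interval -0.16 to 0.03; limma adjusted p = 0.575; two-sided exact permutation p = 0.0714 over 252 assignments, whose smallest p is 0.00794).

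Plagl1 and Ndn are paternally expressed and known to restrain the cell cycle. Plagl1, a zinc finger transcription factor, ran from 10.45 in control 5 to 10.67 in control 2, and from 10.503 in knockout 3 to 10.62 in knockout 1. Its change was 0.00 (95% interval -0.11 to 0.11; limma adjusted p = 0.995). Ndn, which encodes necdin, stood at 8.08, 8.21, 8.18, 8.18 and 8.04 in controls and at 7.97, 8.10, 8.12, 8.22 and 8.36 in knockouts. The lung numbered 5 was the lowest control and the highest knockout, and its knockout minus control difference of 0.33 was the largest of any same-numbered pair for Ndn. The change over all lungs was 0.02 (95% interval -0.14 to 0.17; limma adjusted p = 0.959).

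Impact encodes an inhibitor of the amino acid sensor kinase GCN2. It stood at 9.08, 9.17, 9.08, 8.97 and 8.87 in controls and at 8.95, 9.145, 8.97, 8.87 and 8.82 in knockouts. In both groups lung 2 was highest and lung 5 lowest. The knockout was lower than the control of the same number in 5 of 5 pairs, by 0.03 to 0.13, a pattern for which exact sign flips cannot give a two-sided p under 0.0625. The change of -0.09 (95% interval -0.24 to 0.07) was not called by limma (adjusted p = 0.7, and 0.356 with the replicate number as a block).

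Zim1, a maternally expressed zinc finger gene of the Peg3 domain, varied more between lungs than the other 9 imprinted genes. It stood at 10.37, 10.45, 10.57, 10.69 and 9.82 in controls and at 10.26, 10.38, 10.05, 10.56 and 9.84 in knockouts. The lungs numbered 5 were the lowest of each group, and the lungs numbered 4 the highest. The SD within groups was 0.31, and 2.19% of all genes had a larger one; that of Peg3, its neighbour, was 0.07, and 85.3% of genes had a larger one. The change of Zim1 was -0.16 ± 0.16 (SE), to 89.3% of control, with a 95% interval of 69.8% to 114% (limma adjusted p = 0.758). That SE and interval take the lungs as unpaired. Between lungs of the same number, knockout minus control was 0.01 for number 5 and from -0.52 to -0.07 for the other numbers. The blocked limma fit did not call Zim1 either (adjusted p = 0.326). What size of difference 5 lungs a group could detect was not tested. The change was -0.07 without knockout 5, -0.09 without control 4, -0.25 without knockout 4 and -0.30 without control 5, and was called under none of these.

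Around the 10 genes, the 3 nearest measured genes on each side were read in chromosomal order. Of these 54 genes, 0 were called higher by limma and 5 were called lower, against 1.58% of all genes called lower. They lay beside 3 of the 10 genes, none of which was itself called. Beside Peg10 were Pon1, which encodes a paraoxonase, and Ppp1r9a, an actin-binding neurabin. Pon1 stood between 10.19 and 10.97 in controls and between 8.25 and 9.39 in knockouts, and fell to 33.0% of control (limma adjusted p = 0.00136), with no overlap. Ppp1r9a fell by 0.25 ± 0.06 (adjusted p = 0.0436). Sgce, which shares a promoter region and the paternal expression of Peg10, had a change of -0.03 (adjusted p = 0.829).

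Beside Plagl1, Fuca2, which encodes a fucosidase, fell by 0.40 ± 0.05 (SE; limma adjusted p = 0.000468), from 9.30 to 9.43 in controls to 8.91 to 9.06 in knockouts, with no overlap. The non-coding gene B230208H11Rik fell by 0.30 (adjusted p = 0.0434), but not with values under 6.30 raised to 6.30 (adjusted p = 0.073), nor without controls 1, 2, 3 or 5 or knockouts 1, 2, 3 or 4 (adjusted p up to 0.113). Beside Grb10, Ddc, which encodes aromatic amino acid decarboxylase, fell by 0.47 (limma adjusted p = 0.0355). Cobl, also beside Grb10, was called with the replicate block (limma adjusted p = 0.043) but not without a block (0.0756). Ppp1r9a, Ddc and Cobl are themselves listed here as imprinted. Airn, the paternal antisense RNA of the Igf2r locus, was not called, with a change of -0.06 (adjusted p = 0.76). Magel2, beside Ndn, had one of 0.04 (adjusted p = 0.89), with all 10 of its values under 6.30. Each antisense RNA was read from the probe set annotated to it alone.

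**Figure D3:**
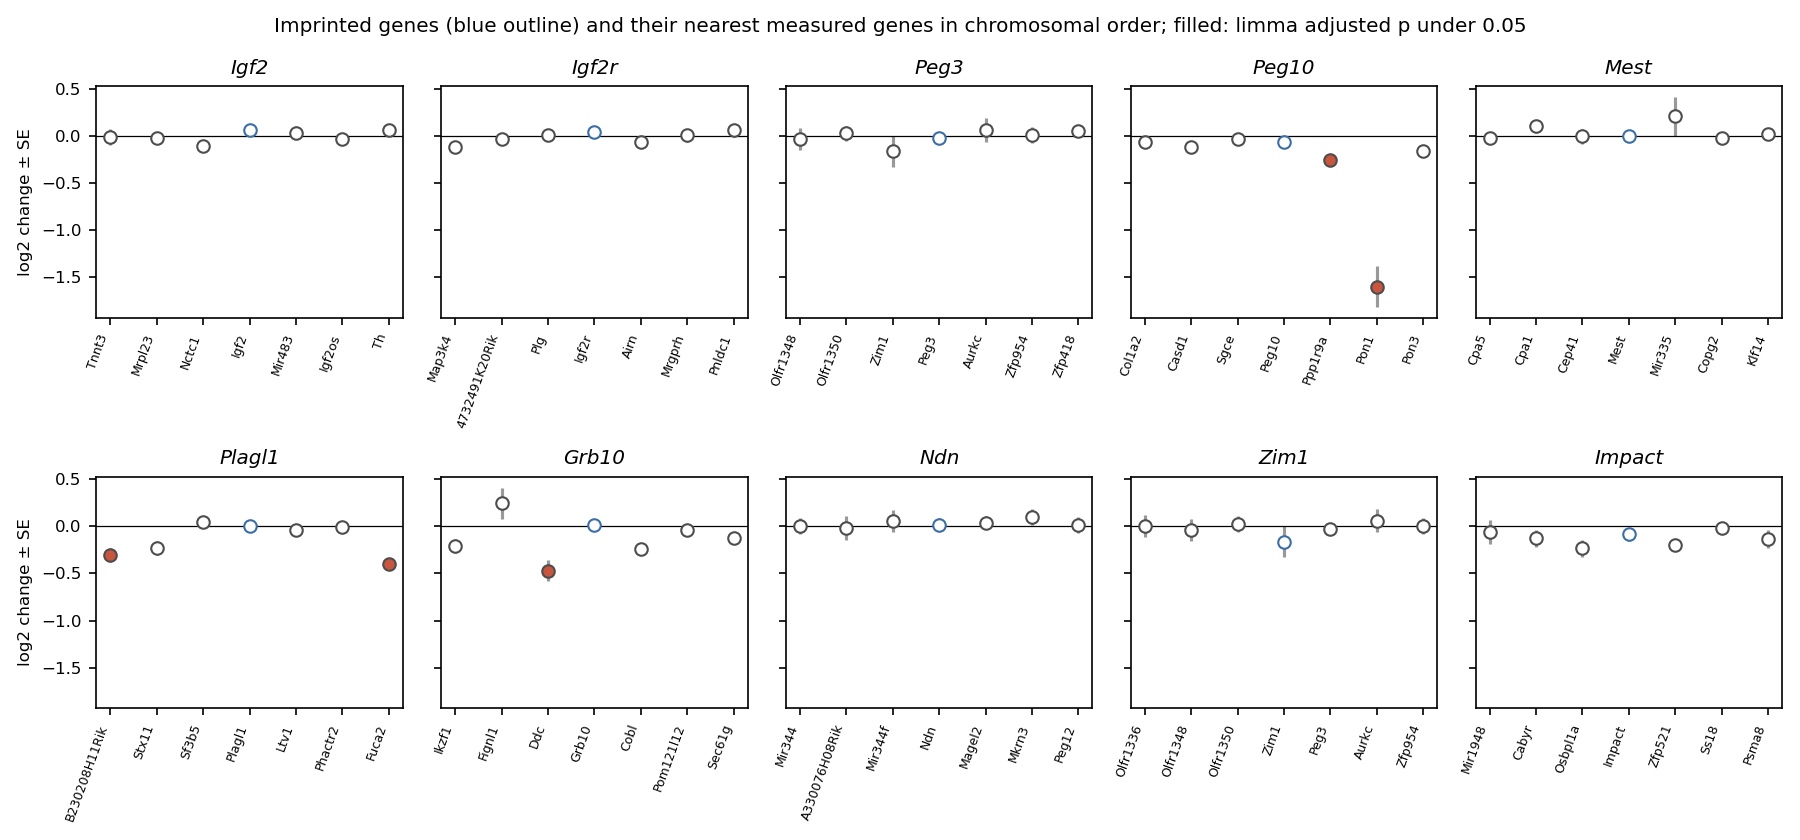
Log2 change with its SE for each imprinted gene (blue outline) and its nearest measured genes in chromosomal order (horizontal axis, order only); filled points were called by limma. The filled points are 5 genes beside Peg10, Plagl1 and Grb10, while all 10 imprinted genes are open and near 0.

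Of 61 other imprinted genes listed outside the Dlk1-Dio3 domain, 46 had a probe set of their own. H19 shares its probe set with Mir675 and is not reported. By limma 0 of 46 rose and 4 fell, which is 8.7% against 3.12% of all genes; 10 of 46 had an unadjusted p under 0.05, beside 13.5% of all genes. The median change was 0.01, against 0.00 over all genes, and 25 of 46 changes were above 0. Ddc stood between 6.77 and 7.12 in controls and between 6.20 and 6.82 in knockouts. Slc22a18, an organic cation transporter, fell by 0.33 ± 0.08 (SE), from 7.68 ± 0.15 to 7.35 ± 0.12 (SD, n = 5 per group; limma adjusted p = 0.0408), with overlapping groups. With the replicate block its adjusted p was 0.0712. Ppp1r9a stood between 9.35 and 9.64 in controls and between 9.09 and 9.22 in knockouts, with no overlap. Phlda2, a brake on placental growth, was called lower by 0.23 (adjusted p = 0.0434), but all its values lay under 6.30; with the block its adjusted p was 0.066.

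These 4 falls were near the threshold. Ppp1r9a was not called without any one of the 10 lungs (adjusted p 0.0554 to 0.111), and Ddc was called only without knockout 5 (up to 0.0892 otherwise). Slc22a18 was not called without control 1, 2, 4 or 5 or knockout 2, 4 or 5 (up to 0.105). Phlda2 was not called without any lung but control 5 or knockout 5 (up to 0.108). The count was 4 with the replicate number as a block, which called Ddc, Ppp1r9a, Kcnq1 and Cobl, 6 with the lungs numbered 1 to 3 and 4 and 5 as a block, and 0 with values under 6.30 raised to 6.30. It was 0 without control 1, control 2, knockout 2 or knockout 4, 1 without control 3, 4 or 5 or knockout 1 or 3, and 3 without knockout 5. Slc22a18, Phlda2, Kcnq1 and the growth inhibitor Cdkn1c belong to one maternally expressed domain. Kcnq1, named after its values were seen, had a change of -0.22 (adjusted p = 0.0576), Cdkn1c one of -0.11 (adjusted p = 0.496) and their paternal antisense RNA Kcnq1ot1 one of 0.13 (adjusted p = 0.305). Other listed genes of that chromosomal region did not share a fall. Tssc4, Tspan32, Ascl2, Th and Nap1l4 had changes of 0.10, 0.08, 0.07, 0.06 and 0.02. Cd81 had one of -0.002 and Osbpl5 one of -0.11, and none of these genes was called. Cobl, also named after its values were seen, had a change of -0.24 (adjusted p = 0.0756).

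**Figure D4:**
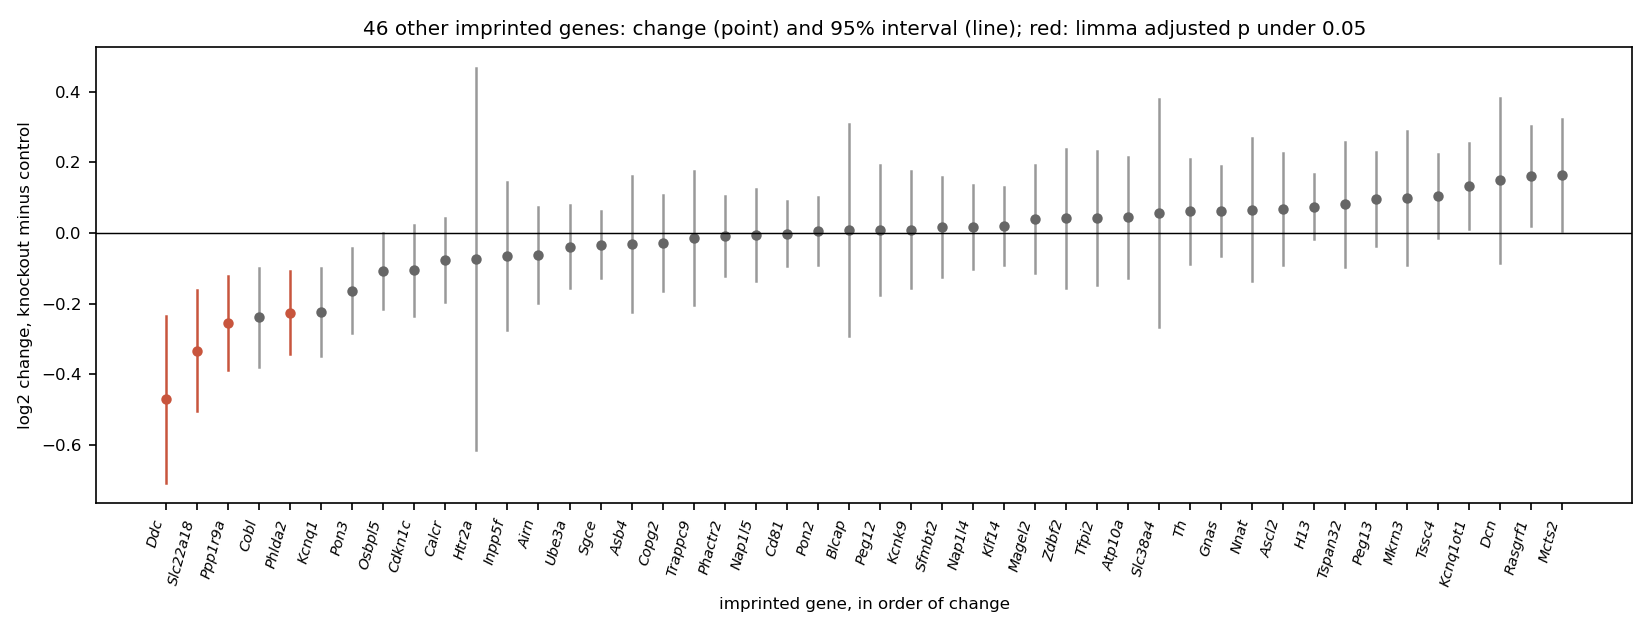
Log2 change (point) and 95% interval (line) of 46 other imprinted genes in order of change; red marks those called by limma. The 4 called genes all lie below 0, and the rest run from -0.24 to 0.16.

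Among the genes of the IGF and insulin axis, which carries the signal of IGF2, 30 of 35 were measured. By limma 0 rose and 1 fell, or 3.33%, near the 3.12% of all genes, and 7 of 30 had an unadjusted p under 0.05, beside 13.5% of all genes. Igfbp5, a secreted IGF-binding protein, stood at 10.15, 10.46, 10.22, 10.11 and 10.23 in controls and at 9.74, 10.02, 9.96, 9.65 and 9.90 in knockouts. All knockouts lay below all controls, and the fall was 0.38 ± 0.08 (SE; adjusted p = 0.0274). That call was lost without control 2, 3 or 5 or knockout 1 or 4 (adjusted p up to 0.0733), leaving 0 called; without knockout 5 it was 3. With values under 6.30 raised to 6.30 Igfbp5 was not called (adjusted p = 0.0728) while Akt1 was. The kinase gene Akt1 had a change of 0.16 ± 0.04 (adjusted p = 0.0702) and was called without knockout 5 (0.0499) and under 4 other settings. The receptor genes Igf1r and Insr had changes of 0.08 and -0.11 and the ligand gene Igf1 one of -0.16, none called (adjusted p = 0.68, 0.241 and 0.559).

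Of the genes that set or keep imprints, such as the methyltransferase gene Dnmt1 and the zinc finger gene Zfp57, 21 of 23 were measured. By limma 0 were called, beside 3.12% of all genes, and 0 had an unadjusted p under 0.05, beside 13.5%. The smallest p values belonged to Dnmt3b, with a change of 0.09 (95% interval -0.003 to 0.19), and Trim28, the corepressor that ZFP57 recruits, with 0.11 (95% interval -0.01 to 0.23). Zfp57 had a change of -0.04 (95% interval -0.23 to 0.14). Of the genes around GCN2, on which the Impact protein acts, 9 of 11 were measured. Asns, which encodes asparagine synthetase and is a target of the GCN2 and ATF4 route, rose by 0.60 ± 0.06 (SE; limma adjusted p = 0.000161), from 7.77 to 8.04 in controls to 8.48 to 8.56 in knockouts. It was the 1 gene called of that list, or 11.1% of 9 genes, beside 3.12% of all genes. The kinase gene Eif2ak4 itself had a change of -0.12 (adjusted p = 0.576) and Atf4 one of 0.13 (adjusted p = 0.341).

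How the 10 genes moved with each other was read from each lung's deviation from its group mean, over 10 lungs. Of 45 pairs, 31 had a Pearson r above 0. By exact permutation within groups (14400 orders), 6 pairs had a raw p under 0.05 and 0 passed Benjamini-Hochberg adjustment over the 45, so these are descriptions. The permutation treats the lungs of a group as independent and takes no account of what same-numbered lungs share, so its p-values do not cover that shared variation. Peg10 and Ndn came closest (r = 0.86, rho = 0.79, exact permutation p = 0.00146, adjusted p = 0.0656; rank p = 0.0151, adjusted 0.145), with r = 0.80 without the 2 lungs farthest from the median of Peg10. Grb10 moved with Mest (r = 0.81, rho = 0.78), with Igf2 (r = 0.81, rho = 0.79) and with Igf2r (r = 0.79, rho = 0.78), and Igf2r moved with Mest (r = 0.81, rho = 0.81). The exact permutation p was from 0.01 to 0.0166 for these 4 pairs (adjusted 0.118 to 0.125; rank p from 0.0125 to 0.0161, adjusted 0.145). Without the 2 lungs farthest from the median of 1 gene of the pair, r was from 0.66 to 0.92. That gene was Igf2r where the pair held it, and otherwise the partner of Grb10. With the lungs numbered 1 to 3 and those numbered 4 and 5 taken as 2 sets, and the mean of each set in each group removed, r was from 0.84 to 0.94 for the same 5 pairs.

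Igf2 and Zim1 went opposite ways (r = -0.79, rho = -0.75, exact permutation p = 0.0119, adjusted p = 0.118; rank p = 0.0237, adjusted 0.178). This rested on the lungs numbered 5, in which Igf2 was highest and Zim1 lowest. Without the 2 lungs farthest from the median of Igf2 the r was -0.40, and among lungs numbered 1 to 3 it was 0.23. Zim1 and Peg3, which share a domain, had r = -0.07 (rho = -0.09; exact permutation p = 0.849, adjusted 0.973; rank p = 0.822, adjusted 0.966). Without the 2 lungs farthest from the median of Peg3 it was -0.23.

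Cell type markers were set beside the 10 genes. Of 13 marker lists, fibroblast (12 measured), smooth muscle, endothelial, leukocyte and cycling cell markers had 0 called genes each by limma without the block. Under the replicate block the smooth muscle marker Cnn1 was called lower (change -0.41, limma adjusted p = 0.0275) and the endothelial marker Car4 higher (0.32, 0.0172). Upk3b of the mesothelial list was also called lower there (-0.26, 0.0271), and Slc4a1 of the erythroid list higher (0.22, 0.0461). Of 6 mesothelial markers 2 were called higher without the block, Msln (adjusted p = 0.0103) and Krt19 (0.00251). Wt1, Lrrn4 and Bnc1 of that list had changes of -0.0007, -0.02 and -0.08, not called. The mesothelial mean ran from 8.46 to 8.63 in controls and from 8.55 to 8.77 in knockouts. The mean smooth muscle level ran from 9.503 to 9.62 in controls and from 9.30 to 9.52 in knockouts. The mean fibroblast level ran from 10.13 to 10.32 in controls and from 10.07 to 10.29 in knockouts. Of 18 epithelial markers, Krt8 and Krt18 rose and Pdpn and Scgb3a2 fell, and the mean ran from 11.09 to 11.14 and from 11.07 to 11.27. The mean of 4 measured trophoblast and placental genes ran from 6.24 to 6.37 in controls and from 6.81 to 7.26 in knockouts; of these Plac1 alone was called, at 6.23 to 6.79 in controls and 8.46 to 9.69 in knockouts, and Syna and Synb had means under 6.30. Of the list's markers Prl3d1, Prl3b1, Gcm1 and Tpbpa were not analysed here. The part of such cells in the levels of the 10 genes was not tested.

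The mean of 11 cycling cell genes was lowest in control 4 (8.41) and knockout 4 (8.56) and highest in control 2 (9.18) and knockout 5 (9.52), and Igf2r, Grb10 and Mest had the highest r with it. For Grb10 r was 0.85 (rho = 0.75; exact permutation p = 0.00764; rank p = 0.0256) and for Igf2r 0.82 (rho = 0.71; exact permutation p = 0.00944; rank p = 0.0442). For Mest r was 0.76 (rho = 0.82; exact permutation p = 0.0279; rank p = 0.0193). Grb10 went opposite to the mean of the epithelial markers (r = -0.75, rho = -0.77; exact permutation p = 0.0151; rank p = 0.0169; -0.40 without the 2 lungs farthest from the median of that mean). This was not particular to Grb10, as of the 10 genes only Zim1 had an r above 0 with that mean (0.335). For Igf2r, Mest, Igf2 and Peg3 r was from -0.65 to -0.57. Plagl1 had r = -0.48 and rho = -0.79 (exact permutation p = 0.0488, adjusted 0.539; rank p = 0.00708, adjusted 0.57; r = -0.81 without the 2 farthest lungs). Over all 130 pairs of a gene and a marker list 12 had a raw p under 0.05 and 0 passed adjustment. For Grb10, Igf2r and Mest with the cycling mean and Grb10 with the epithelial mean, the adjusted permutation p was 0.402. By ranks it was 0.57 to 0.629. Pairs with the same 0.402 were Igf2r with chondrocyte markers (r = -0.79) and Igf2 with trophoblast markers (0.76). So were Plagl1 with erythroid (-0.75) and chondrocyte (-0.72) markers, and Zim1 with endothelial markers (0.72). A list mean weights most the genes that vary most. These were Sox9 for chondrocyte (SD within groups 0.43), Plac1 for trophoblast (0.36), Car4 for endothelial (0.28) and Slc4a1 for erythroid (0.21) markers. Only 3 of 9 erythroid markers were analysed, and 3 of the 6 analysed chondrocyte markers had means under 6.30. Car4 is also among the 3 genes most like Zim1. What single genes add to these r was not tested. The adjusted p thus does not set the cycling list apart. Without the 2 lungs farthest from the median of the cycling mean, r with it was 0.69 for Grb10, 0.86 for Igf2r and 0.64 for Mest. With the set means removed it was 0.88, 0.94 and 0.87. The part of cycling cells in these levels was not tested.

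**Figure D5:**
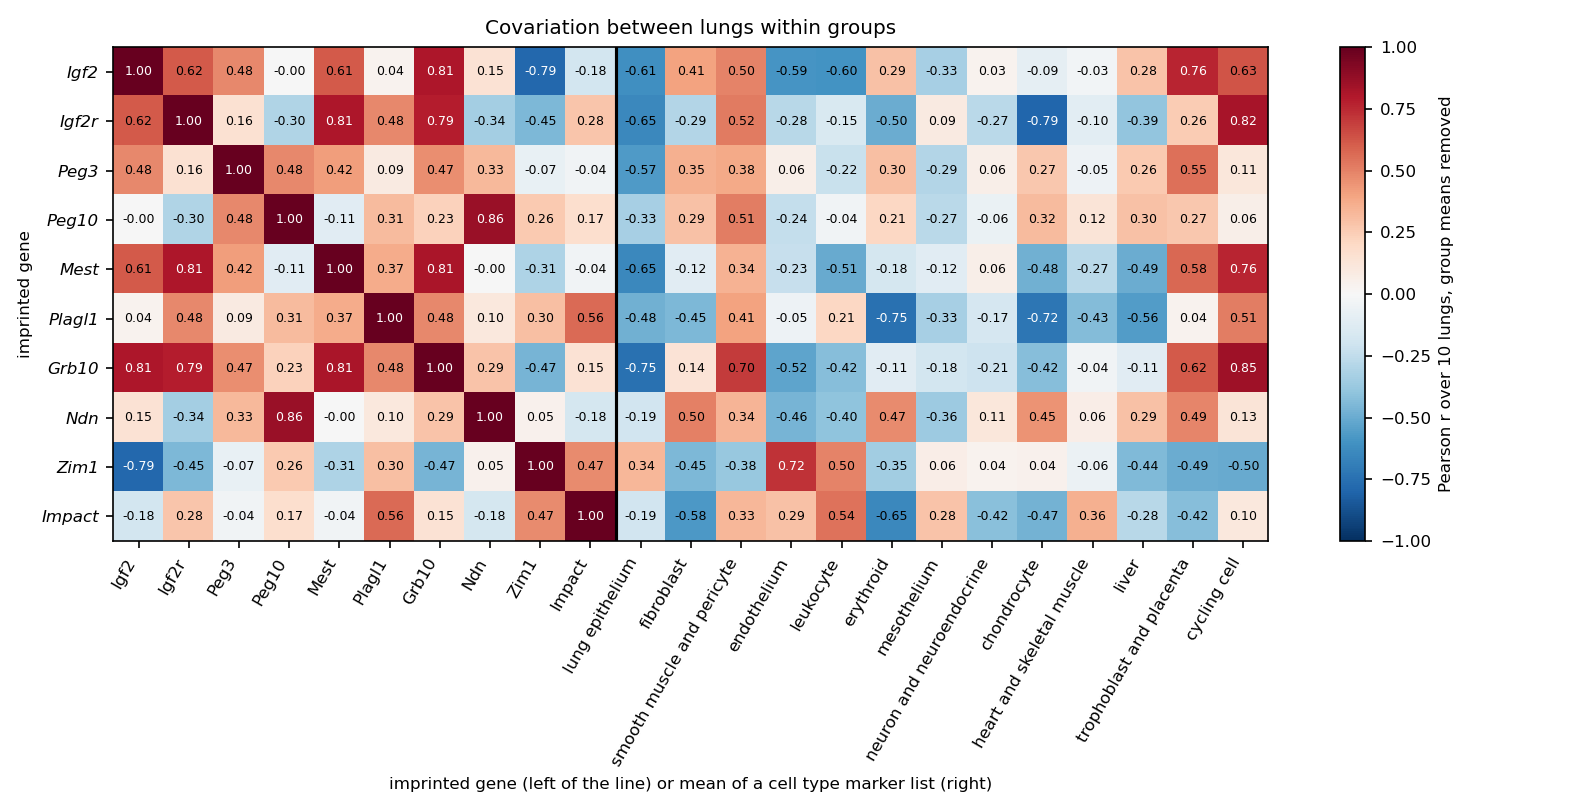
Pearson r over 10 lungs, after removing each group's mean, between the 10 imprinted genes (left of the line) and between each and the mean of a cell type marker list (right). Igf2, Igf2r, Mest and Grb10 form a block of positive values from 0.61 to 0.81, and Peg10 pairs with Ndn at 0.86.

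The 3 genes most like each of the 10 were taken by the highest r of such deviations over 10 lungs, among genes with a mean above 6.30. Because they were picked as the highest over all such genes, they carry no p. For Igf2 they were Lpar4 (0.97), Ccdc158 (0.95) and Gm5614 (0.94), and for Igf2r they were Nup37 (0.97), Sstr2 (0.97) and Pafah1b3 (0.96). For Grb10 they were Dpy30, Lancl2 and 3000002C10Rik (each 0.96 to 0.97), and for Mest Rap1gds1, Tfpi and Car2 (0.94 to 0.96). For Peg3 they were Col8a1 (0.97), Mroh5 and Trim26, and for Peg10 Sdhaf4, Gpr20 (0.92) and Iffo2. Ndn was nearest to Gpc3 (0.94), then Gpr20 (0.93) and Abraxas2, so that Gpr20 appears for both Peg10 and Ndn. Plagl1 was nearest to Hebp1 (0.95), Mff and Plcl2, Zim1 to Rapgef5 (0.93), Leprotl1 and the capillary gene Car4 (0.91), and Impact to Fam204a (0.98), Ankle2 and Zfyve27. None of these genes was called by limma between knockout and control without the block; with the replicate block Car4 was (adjusted p = 0.0172).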

How the data were processed

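Whole-lung RNA of 10 mouse embryos was measured on Affymetrix arrays, 1 per lung, from 100 ng of total RNA per the labels' protocols. The deposited values are log2 probe set levels; per the submitters' processing notes the authors used oligo, RMA and limma, with no versions. No source used here names the genome build or a row filter, and the scanner files were not used here. The platform annotation gave 1 symbol for 18922 of 24888 probe sets; the one with the highest mean stood for each of 17919 genes. All 10 lungs entered 1 limma fit (limma 3.58.1, R 4.3.3; lmFit and eBayes, two-sided), tested first on simulated data. The number of arrays limits the precision; the median SE of a change was 0.066. The p-values measure the spread between these lungs, which the labels call biological replicates.

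Deviations of same-numbered lungs from their group means correlated at 0.154 to 0.485, against a median of -0.0829 and a maximum of 0.33 between other numbers, which exceeds 3 of the 5 same-number values. All 5 lay over 0.1, the criterion used, so the numbers were taken to pair the lungs; the pairing comes from the data, not the labels. Differences between the sets numbered 1 to 3 and 4 and 5 could raise these values too. The main fit held no block, so SEs, intervals and adjusted p given without mention of a block take the lungs as unpaired. No interval is given from the blocked fit.

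The 10 genes, the lists and the tests were chosen with earlier results of these data known. Genes were named by rule: the 10, Hdac3, up to 4 called genes of each list by smallest p or the 2 of smallest p where fewer than 2 were called, called neighbours, and the 3 most similar genes. Other genes named with values were chosen after their values were seen. Permutation p values for covariation were added after the design was written. Alternatives were the replicate block, the 2 sets as a block, quantile normalization, median centring, genes above the median level, values under 6.30 raised to it, a trend and robust prior, other uses of a gene's probe sets, and leaving out each lung. The gene table (GRCm38.p6) was used for gene order only, with 17787 genes matched by ID.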

Additional observations from a re-analysis of the deposited data

Results flagged for a closer look

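Each named gene's lungs were searched, within each group of 5, for a value far from the rest by Dixon's criterion. Of 48 such groups 1 stood out, where chance alone gives about 5%. Ppp1r9a, the neurabin gene beside Peg10, was 9.64 in control lung 4, against 9.35 to 9.42 in the other controls. No lung of the 10 imprinted genes met the criterion.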

How the results depend on the processing

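The count of called genes among the 10 was 0 under all 19 alternatives. For Igf2, Igf2r, Peg3, Peg10, Zim1 and Impact the change also kept its sign under all of them. With the replicate block the count was 0 too, while the count over all genes went from 559 to 846, and to 910 with the 2 sets of numbers as a block; leaving out single lungs gave 393 to 699. The pairing changed no call of the 10, and the calls it changed among the other genes named are given above; for Slc22a18 and Phlda2 the blocked adjusted p was 0.0712 and 0.066. Changes nearest 0 turned sign. Phlda2, with all values under the floor, has no difference with values floored. Plagl1 went from 0.00 to -0.0086 with median centring and -0.0088 with quantile normalization. Leaving out single lungs gave -0.027 to 0.029 for Plagl1, -0.019 to 0.012 for Mest, -0.035 to 0.063 for Ndn and -0.00903 to 0.044 for Grb10. The IGF axis had 2 called genes, against 1, with the 2 sets as a block, genes above the median level, values floored or the trend and robust prior, and 0 to 3 without single lungs. The list of other imprinted genes had 6 called genes, against 4, with the 2 sets as a block, 0 with values floored, and 0 to 3 without single lungs. The cause was not tested. With values floored the adjusted p was 0.0954 for Ddc, 0.0909 for Slc22a18 and 0.0658 for Ppp1r9a. The precision is that of 5 arrays a group.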

Other observations

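Some imprinted genes that were not called varied more between lungs than any of the 10 except Zim1. Htr2a varied more than Zim1 as well, with an SD within groups of 0.48 against 0.31. Htr2a, a serotonin receptor gene, stood from 8.10 to 8.30 in controls 1 to 3 and at 7.35 and 7.34 in controls 4 and 5. Its knockouts 1 to 3 stood from 7.96 to 8.25, and knockouts 4 and 5 at 7.35 and 7.18. Blcap stood from 8.36 to 8.59 in lungs 1 to 3 of both groups and from 8.004 to 8.11 in lungs 4 and 5. Slc38a4, an amino acid transporter gene, was lowest in the lungs numbered 4, at 8.76 and 8.87.

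Igfbp3, which encodes the main IGF carrier of serum, had a spread of 0.15 (SD, n = 5) in controls and 0.55 in knockouts. Knockout 5 stood at 8.93, against 9.70 to 10.27 in the other knockouts.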
